A study of Mus musculus with 12 samples.

Results

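The 39 genes described here are the enzymes and transporters of glycolysis together with genes that cells switch on when oxygen is short. They were chosen by symbol, and all 39 symbols have a line in a table of 23282 gene lines. Of the 39, 38 had enough counts to be tested among 13464 genes, and Eno1 did not. RNA was sequenced from 12 MC38 tumors, 3 in each of 4 groups, to compare a plant extract, an antibody against PD-1 and their combination. MC38 is a colon carcinoma cell line of C57BL/6 mice. Female wild-type mice of that strain, bought at 6 weeks of age, were acclimated and then given the cells under the skin of the flank. Con mice received saline containing the solvents DMSO and Tween, and IgG2a antibody. SFIH mice received IgG2a antibody and SFIH, a fraction of the plant Inula helenium rich in sesquiterpene lactones. SFIH was given in the same solvents at 50 mg/kg into the peritoneum every day. PD mice received 200 μg of anti-PD-1 antibody 2 times a week, and Comb mice received SFIH and the antibody together. All tumors carry the time label of day 19. The labels call the samples tumor cells, but the RNA came from tumor tissue, so cells of the mouse host are included. Nothing in the labels says that a tumor was pooled.

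Glycolysis splits glucose into pyruvate in the cytosol and yields ATP without oxygen. Pyruvate then enters the mitochondria, or lactate dehydrogenase turns it into lactate that leaves the cell through monocarboxylate transporters. Hypoxia-inducible factor 1 (HIF-1) is a pair of proteins, HIF-1α and ARNT. With oxygen, prolyl hydroxylases mark HIF-1α for destruction. Without it, HIF-1α accumulates, binds short DNA motifs and raises the transcription of glucose transporters, most glycolytic enzymes and the hydroxylases that act on it. Fast-growing tumors under the skin often hold poorly perfused areas in which these genes are high, and many tumor cells use glycolysis in the presence of oxygen too.

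Libraries were made with a kit that reads the 3′ end of mRNA, so a count does not grow with transcript length. Total counts were between 7870741 and 12261032 per tumor. A level is log2(CPM + 1), where CPM is the count at a common library size, scaled by the trimmed mean of M-values (TMM). Values of a gene are listed in the order of replicates 1 to 3, and values with SFIH, with the antibody and with both are those of the SFIH, PD and Comb tumors. Of the epithelial markers of the colon listed (10 genes), the summed level was 4.69 to 25.2 CPM in 11 tumors and 122 CPM in Comb replicate 3, and Lgals4 was at 0 in every tumor. Comb replicate 3 stood apart from the rest. Its summed level of 26 skeletal muscle markers, Eno3 and Pgam2 among them, was 11138 CPM, against 33.5 to 45.3 CPM in Con and 1179 and 36.7 CPM in Comb replicates 1 and 2, and 23 of 24 tested muscle markers were highest in it. It was also highest for 10 of 10 macrophage markers and lowest for 14 of 15 cell cycle markers. In whole tumor RNA, fewer cells of a type and less RNA per cell cannot be told apart.

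Together the hypoxia and glycolysis genes took the largest share of the RNA in Con tumors and the smallest in Comb tumors. Their share of all counts was 0.888% ± 0.0909 in Con and 0.808% ± 0.0179 in SFIH, against 0.630% ± 0.0349 in PD and 0.470% ± 0.0959 in Comb (mean ± SD, n = 3). The Con tumors lay between 0.819% and 0.991% and the SFIH tumors between 0.788% and 0.821%, so these groups overlapped. The PD tumors lay between 0.600% and 0.668%, below every Con and SFIH tumor. The Comb tumors lay between 0.401% and 0.579%, below every PD tumor.

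The same order held in the typical gene. For each tumor, the level of each tested gene was taken relative to its mean in Con, and the median over the 38 genes was read. The Con tumors had medians of 0.02, 0.15 and -0.15, the SFIH tumors of -0.17, -0.31 and -0.06, the PD tumors of -0.40, -0.32 and -0.32, and the Comb tumors of -0.56, -0.76 and -0.75. The SFIH tumors overlapped Con, and the PD and Comb tumors did not overlap Con or each other. Over all 13464 genes tested, the median was between -0.12 and 0.02 in every tumor. The number of the 38 genes below their Con mean was 35, 30 and 37 in the PD tumors and 35, 36 and 27 in the Comb tumors. It was 23, 30 and 25 in the SFIH tumors and 17, 8 and 33 in the Con tumors themselves. Con replicate 3 was thus above PD replicate 2 and Comb replicate 3, and this number did not separate the groups.

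**Figure D1:**
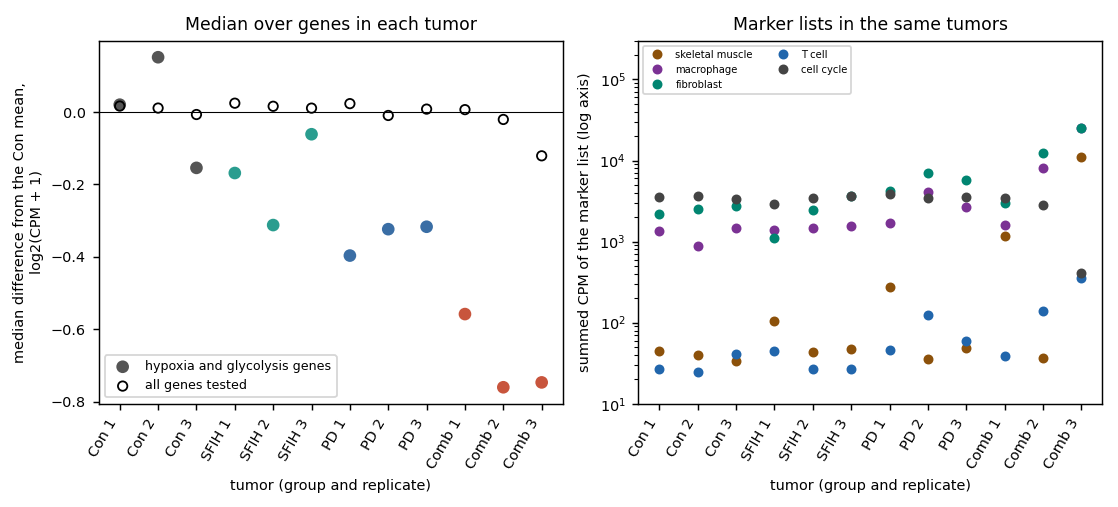
Left, the median difference from the Con mean in log2(CPM + 1) for each tumor, over the 38 hypoxia and glycolysis genes (filled) and over all genes tested (open). Right, the summed CPM of 5 marker lists in the same tumors on a log axis: the filled points on the left lie lowest in Comb, at -0.56 to -0.76, and the macrophage and fibroblast lists are highest in Comb replicates 2 and 3.

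Markers of host cells moved with the groups as well. The summed level of 10 macrophage markers spanned 874 to 1485 CPM in Con tumors, 1402 to 1558 CPM with SFIH, 1708 to 4121 CPM with the antibody and 1600 to 25050 CPM with both, and that of 10 fibroblast markers spanned 2208 to 2727, 1094 to 3666, 4221 to 7026 and 3014 to 24974 CPM in the same order. None of these 20 markers was at 0 in all tumors. In Comb vs Con, 8 of the 10 fibroblast markers had a log2 fold change above 0, and Pdgfra and Pdgfrb, which encode receptors for platelet-derived growth factor, had one below 0. Summed T cell markers (9 tested) were 24.9 to 41.4 CPM in Con and 38.7 to 356 CPM in Comb, and summed cell cycle markers (15) were 3307 to 3653 CPM in Con and 411 to 3434 CPM in Comb. The adipocyte list was at 63.6 to 92.1 CPM in Con and at 87.6, 535 and 1419 CPM in Comb, and the skin list at 18.3 to 34.6 CPM in Con and 12.6, 12.6 and 521 CPM in Comb. The neutrophil list reached 937 CPM, the erythroid list 2423 CPM and the endothelial list 227 CPM in Comb replicate 3, against at most 91.5, 339 and 146 CPM in Con. Most neutrophil counts of that tumor were those of a single gene, Retnlg (7551 counts). S100a8 (70 counts) and S100a9 (45 counts) were below their Con ranges of 107 to 448 and 130 to 474 counts. In Comb vs Con, 4 of the 6 neutrophil markers tested had a log2 fold change above 0 and 2 below. In Comb replicate 1 the macrophage list (1600 CPM) and the fibroblast list (3014 CPM) were near the highest Con tumor, the cell cycle list (3434 CPM) was within the Con range, and the muscle list (1179 CPM) was above it. In that tumor the median of the hypoxia and glycolysis genes was -0.56. The part of host cells in the group differences was not tested.

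No gene of the 13464 passed an adjusted p of 0.05 in edgeR's quasi-likelihood test in any of the 5 comparisons of 2 groups or in the interaction, so the differences below are given as values. Nothing in the labels says that each tumor came from a mouse of its own, so p-values measure the spread between these tumors, and comparisons that use Con share the same 3 Con tumors. SFIH vs Con asks what the extract does alone. Of the 38 genes, 27 had a log2 fold change below 0, against 47% of all genes tested. In 6 genes every SFIH tumor was below every Con tumor (8.86% of all genes tested) and in 1 gene, Gapdh, every SFIH tumor was above (8.55%). The 6 were Gpi1, Pdk1, Egln1, Kdm3a, Ddit4 and Mxi1. An unadjusted p under 0.05 was reached by Egln1 alone (1.05% of all genes in that direction) and in the other direction by no member (1.2%). DESeq2, the other count test run, called no member and 0.0149% of all genes in each direction. Without Comb replicate 3, DESeq2 called 1 member, Ddit4, lower (0.235%, with 0.242% of all genes called higher). The median log2 fold change was -0.18, and over all genes it was 0.02.

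PD vs Con asks what the antibody does alone. Of the 38 genes, 33 had a log2 fold change below 0, against 48.3% of all genes. In 18 genes every PD tumor was below every Con tumor, against 9.4% of all genes, and in no gene was the reverse true (9.37%). Of these, 9 take glucose into the cell or turn it into pyruvate (Slc2a1, Gpi1, Pfkp, Aldoa, Aldoc, Tpi1, Gapdh, Pgk1 and Pkm). Pdk1, Ldha, Slc16a3, P4ha2, Bnip3, Bnip3l, Higd1a, Ndrg1 and Ddit4 made up the rest. The unadjusted p was under 0.05 in 8 genes, all lower, against 1.68% of all genes (2.31% on the higher side), and DESeq2 called 1 member, Aldoc, lower (0.0223%, the same share being called higher). Without Comb replicate 3, DESeq2 called Aldoc, Bnip3 and Ddit4, all lower (0.184%, with 0.316% of all genes called higher). The median log2 fold change was -0.34 against 0.01 over all genes, and it was -0.22 without Con replicate 2, the tumor in which 17 of the 38 genes were highest (8.20% of all genes tested were highest there).

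Comb vs Con asks what both do together. Of the 38 genes, 31 had a log2 fold change below 0, against 52% of all genes, and the median was -0.69 against -0.03. In 25 genes every Comb tumor was below every Con tumor, against 13% of all genes, and in none was every Comb tumor above (11.7%). The unadjusted p was under 0.05 in 25 genes, all lower, against 7.3% of all genes (18% on the higher side), and the smallest adjusted p was 0.0665. DESeq2 gave an adjusted p under 0.05 to 23 of the 38 genes, all lower, against 2.89% of all genes (12% called higher). The edgeR calls turned on single Comb tumors. Without Comb replicate 1, 22 members passed, 21 lower (10.1% of all genes) and Slc2a3 higher (18.4%). Without Comb replicate 3, edgeR called 1 member, Bnip3, which was also the only gene of all called lower (0.00734%, with 0.0294% called higher). DESeq2 without that tumor called 18, all lower (1.41%, with 4.02% of all genes called higher). Without Comb replicate 3 the other Comb tumors were below every Con tumor in 29 genes (16.8% of all genes).

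**Figure D2:**
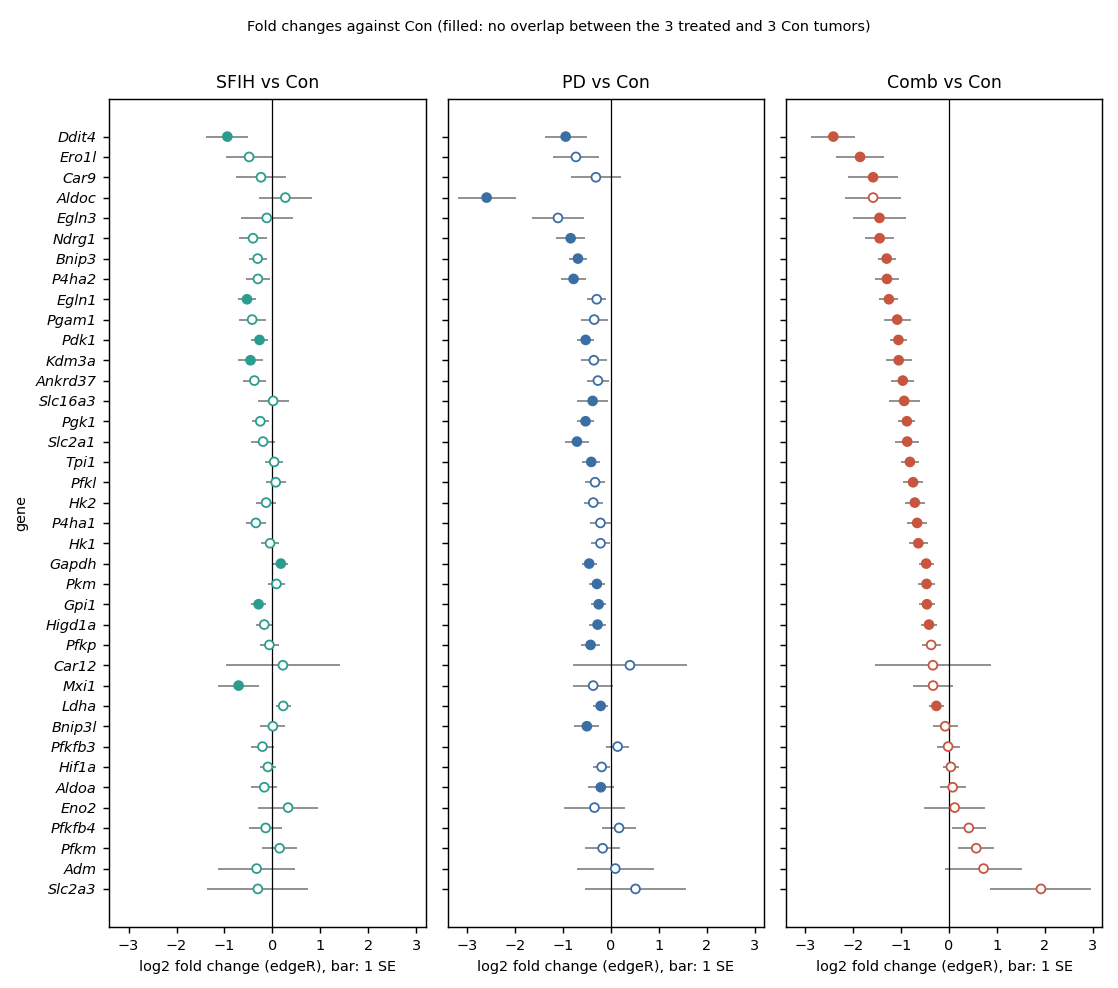
Log2 fold change (edgeR) of each tested gene against Con, with a bar of 1 SE, in SFIH, PD and Comb, ordered by the value in Comb. Filled points mark genes whose 3 treated tumors do not overlap the 3 Con tumors (7 in SFIH, 18 in PD and 25 in Comb), and the points of Comb run from -2.41 for Ddit4 to 1.92 for Slc2a3.

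Comb vs PD asks what the extract adds to the antibody. Of the 38 genes, 27 had a log2 fold change below 0 (50.2% of all genes) and the median was -0.35 against -0.00, and -0.20 without PD replicate 2. Every Comb tumor was below every PD tumor in 12 genes, against 8.06% of all genes, and above it in none (6.21%). The 12 were Hk2, Tpi1, Pgk1, Pgam1, Pdk1, Egln1, P4ha1, Bnip3, Car9, Ankrd37, Ndrg1 and Ddit4. The unadjusted p was under 0.05 in 11 genes, all lower (5.11%, with 12.9% of all genes on the higher side), and without Comb replicate 3 the tumors did not overlap in 15 genes (10.5%). DESeq2 called 2 of the 38, Egln1 and Ddit4, both lower (0.587%, with 2.51% of all genes called higher), and without Comb replicate 3 it called Egln1 alone, lower (0.176%, with 0.044% called higher). Without Comb replicate 1, edgeR called 6, all lower (4.11%, with 11% called higher).

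Comb vs SFIH asks what the antibody adds to the extract. Of the 38 genes, 30 had a log2 fold change below 0 (53.6% of all genes), with a median of -0.59 against -0.05. In 22 genes every Comb tumor was below every SFIH tumor (8.58%) and in none above (7.64%), and in 27 every one was below without Comb replicate 3 (12%). The unadjusted p was under 0.05 in 22 genes, all lower (4.22%, with 14.8% of all genes on the higher side). DESeq2 called 14 members, all lower (0.75%, with 7.84% called higher), and 6 without Comb replicate 3, all lower (0.125%, with 0.565% called higher). Without Comb replicate 1, edgeR called 15 members, 14 lower (6.97%) and Slc2a3 higher (15.5%).

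The interaction asks whether the step from PD to Comb differs from the step from Con to SFIH. Its log2 value was below 0 in 23 of the 38 genes (52.4% of all genes), with a median of -0.21 against -0.03 over all genes. The median was -0.09 without Con replicate 3 and -0.08 without PD replicate 2. No member reached an unadjusted p under 0.05, which 0.557% of all genes did on the lower side and 2% on the higher side, and the smallest adjusted p of a member was 0.894. No difference between the 2 steps was detectable for a member with 3 tumors in each group.

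In 6 genes the groups were fully ordered, every Comb tumor being below every PD tumor and every PD tumor below every Con tumor. They were Tpi1, Pgk1, Pdk1, Bnip3, Ndrg1 and Ddit4. This order was found in 0.357% of all genes tested.

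**Figure D3:**
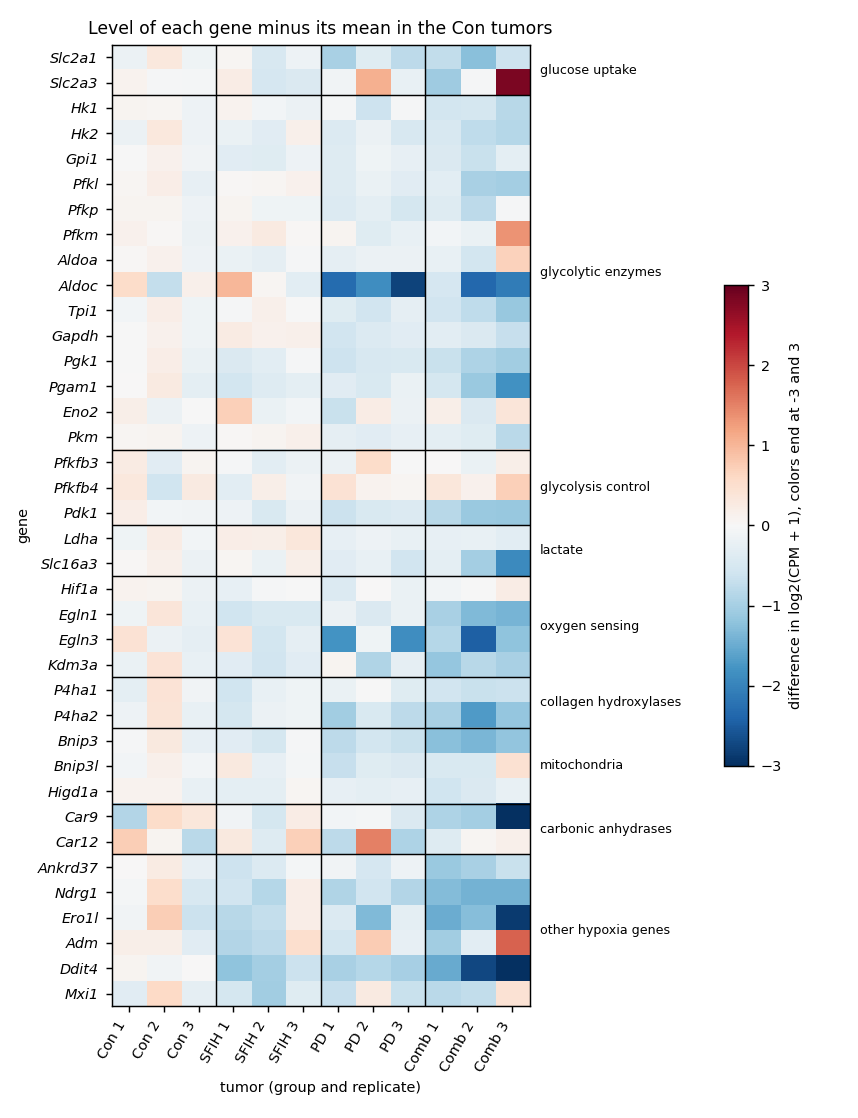
Level of each of the 38 tested genes in each tumor minus its mean in the Con tumors, in log2(CPM + 1), with blue below and red above that mean and colors ending at -3 and 3. Rows are grouped by role and columns by group: the Comb columns are blue in most rows, and the highest cell of the Slc2a3, Pfkm and Adm rows is that of Comb replicate 3.

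The HIF-1 pair binds DNA at a short core, ACGTG or GCGTG. Both were searched on both strands in the 250 bases before each gene's start in the RefSeq promoters of mouse build GRCm38.p6. Of the 39 genes, 36 were matched to a promoter there (53 promoters, Ero1l under its other name Ero1a), and Slc2a3, Bnip3l and Ndrg1 were not. ACGTG was present before 21 of the 36 genes (58.3%), against 24.6% of 10625 tested genes with a promoter and 16.6% of all 32851 promoters. GCGTG was present before 23 (63.9%), against 48.3% and 28.2%. At least 1 of the cores was present before 32 (88.9%), against 59.8% and 38.6%. A match is a description of the letters and not a shown binding site. Printed here are the windows of 4 genes that were lower in Comb than in Con in all tumors (Bnip3, Ddit4, P4ha2 and Pgk1), of Ldha, whose difference was small, and of Hif1a, whose groups overlapped. Bnip3 is at chr7:138909507-138909756 on the minus strand, Ddit4 at chr10:59951771-59952020 on the minus strand and P4ha2 at chr11:54100674-54100923 on the plus strand. Pgk1 is at chrX:106186850-106187099, Ldha (the upstream of 2 promoters) at chr7:46845554-46845803 and Hif1a at chr12:73907617-73907866, all on the plus strand. Each is given 5′ to 3′ on the strand of its gene and ends at the base before the start, with every core on either strand in capitals. CACGTG holds the core on both strands.
Bnip3: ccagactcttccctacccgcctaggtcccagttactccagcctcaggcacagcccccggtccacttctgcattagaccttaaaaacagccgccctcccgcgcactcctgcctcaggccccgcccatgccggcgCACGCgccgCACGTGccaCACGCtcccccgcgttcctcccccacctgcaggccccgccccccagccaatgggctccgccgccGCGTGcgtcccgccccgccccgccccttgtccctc
Ddit4: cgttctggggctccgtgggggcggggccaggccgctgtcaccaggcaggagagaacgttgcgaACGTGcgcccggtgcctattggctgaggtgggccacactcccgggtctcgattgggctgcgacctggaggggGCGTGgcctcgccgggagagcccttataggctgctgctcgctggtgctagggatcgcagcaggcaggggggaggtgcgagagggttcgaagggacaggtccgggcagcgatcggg
P4ha2: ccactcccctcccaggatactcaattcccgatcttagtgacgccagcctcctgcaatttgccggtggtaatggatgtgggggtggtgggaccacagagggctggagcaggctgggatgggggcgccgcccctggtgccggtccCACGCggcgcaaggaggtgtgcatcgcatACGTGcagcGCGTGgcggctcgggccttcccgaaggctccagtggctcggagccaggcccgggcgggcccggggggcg
Pgk1: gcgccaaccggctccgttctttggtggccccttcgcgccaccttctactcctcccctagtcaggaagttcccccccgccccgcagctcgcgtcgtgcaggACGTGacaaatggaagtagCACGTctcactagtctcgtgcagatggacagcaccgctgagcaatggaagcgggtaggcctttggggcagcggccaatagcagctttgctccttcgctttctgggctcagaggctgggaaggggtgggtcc
Ldha: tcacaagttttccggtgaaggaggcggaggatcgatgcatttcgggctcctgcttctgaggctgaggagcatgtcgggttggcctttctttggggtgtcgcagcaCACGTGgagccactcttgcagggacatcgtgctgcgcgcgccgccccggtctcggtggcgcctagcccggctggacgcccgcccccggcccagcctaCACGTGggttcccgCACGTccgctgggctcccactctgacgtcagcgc
Hif1a: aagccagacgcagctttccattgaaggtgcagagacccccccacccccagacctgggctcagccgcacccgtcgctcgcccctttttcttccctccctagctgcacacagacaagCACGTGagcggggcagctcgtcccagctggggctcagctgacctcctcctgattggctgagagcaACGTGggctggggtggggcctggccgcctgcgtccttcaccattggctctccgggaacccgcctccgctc
Every window printed holds at least 1 core, that of Hif1a included. Among genes not printed, Tpi1 and Gpi1 had no core in the window, and both were lower in every Comb tumor than in every Con tumor.

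Glucose enters most cells through the transporters GLUT1 (Slc2a1) and GLUT3 (Slc2a3). Slc2a1 was at 7.04, 7.54 and 7.08 in the Con tumors, 7.29, 6.73 and 7.06 with SFIH, 6.25, 6.86 and 6.44 with the antibody and 6.49, 5.96 and 6.60 with both. All PD and Comb tumors were below all Con tumors, PD and Comb overlapped, and SFIH overlapped Con. The fitted log2 difference was -0.70 (SE 0.25) in PD and -0.87 (SE 0.25, adjusted p = 0.0747 in edgeR) in Comb. Slc2a3 was measured with few counts, 24, 18 and 20 in the Con tumors, 33, 14 and 11 with SFIH, 16, 37 and 15 with the antibody and 4, 16 and 162 with both. Comb replicate 3 was far above the rest, Comb replicate 1 was the lowest of all and Comb replicate 2 was within the range of Con. Its fitted log2 difference in Comb vs Con was 1.92 (SE 1.05, adjusted p = 0.270 in edgeR), and -0.79 without Comb replicate 3.

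Hexokinases add the first phosphate to glucose, and both members, Hk1 and Hk2, were below every Con tumor in every Comb tumor. Hk3, a hexokinase of the wider list, was at 1.93, 2.04 and 2.86 in Con and at 2.73, 4.71 and 5.89 in Comb, where replicate 1 was within the Con range. Its log2 fold change was 2.87 (SE 0.73, adjusted p = 0.0671 in edgeR) and 1.92 (SE 0.61) without Comb replicate 3. Hk2, the form that HIF-1 raises, was at 7.65, 8.13 and 7.68 in the Con tumors, 7.63, 7.47 and 7.97 with SFIH, 7.41, 7.65 and 7.35 with the antibody and 7.33, 7.06 and 6.97 with both. The Comb tumors were the lowest 3, and the highest PD tumor reached the lowest Con tumor. By edgeR the log2 fold change in Comb vs Con was -0.71 (SE 0.20) for Hk2 and -0.64 (SE 0.19) for Hk1, the broadly expressed form. Gpi1, which turns glucose 6-phosphate into fructose 6-phosphate, was at -0.29 (SE 0.16) with SFIH, -0.25 (SE 0.16) with the antibody and -0.46 (SE 0.16) with both, with no treated tumor reaching the lowest Con tumor.

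Phosphofructokinase adds the second phosphate and is built from liver-type (Pfkl), platelet-type (Pfkp) and muscle-type (Pfkm) subunits. On the log2 scale Pfkl was at -0.33 (SE 0.21) in PD vs Con, with overlap, and at -0.75 (SE 0.21) in Comb vs Con, with no overlap. Pfkp was at -0.42 (SE 0.20) in PD vs Con, with no overlap, and at -0.37 (SE 0.20) in Comb vs Con, where Comb replicate 3 was within the Con range. Pfkm was at 4.53, 4.42 and 4.22 in Con and 4.32, 4.20 and 5.75 in Comb, so that Comb replicate 3 was above all Con tumors and the other Comb tumors were within their range or just below it. Its log2 fold change was 0.57 (SE 0.37, adjusted p = 0.343 in edgeR) and was -0.14 without Comb replicate 3. Pfkfb3 and Pfkfb4, which make and break the compound that activates phosphofructokinase, overlapped between Con and each treated group. Their log2 fold changes were between -0.21 and 0.41 in the comparisons against Con.

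Aldolase splits the sugar. Aldoc, the aldolase best known from brain, had the largest fold change of the 38 genes in PD vs Con. It was at 5.35, 4.09 and 4.96 in the Con tumors, 5.79, 4.85 and 4.49 with SFIH, 2.48, 2.94 and 2.03 with the antibody and 4.29, 2.46 and 2.70 with both. Every PD tumor was below every Con and SFIH tumor, while Comb replicate 1 reached into the Con range. The log2 fold change was -2.59 (SE 0.60) in PD vs Con, -1.58 (SE 0.58) in Comb vs Con and 0.27 (SE 0.56) in SFIH vs Con. DESeq2 gave the PD value an adjusted p of 0.0303, the only member it called in that comparison, in which it called 0.0223% of all genes lower. Aldoa, the main form by counts, was at 9.59, 9.69 and 9.41 in Con and at 9.35, 9.02 and 10.26 in Comb. Comb replicate 3 was above all other tumors and the other 2 Comb tumors were below all Con tumors, so the log2 fold change of 0.08 (SE 0.27) averages opposite differences.

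Most of the later enzymes, which work on the split sugar, were at lower levels in PD and Comb than in Con. Tpi1, which interconverts the aldolase products, was at 8.61, 8.90 and 8.57 in the Con tumors, 8.66, 8.86 and 8.69 with SFIH, 8.32, 8.13 and 8.42 with the antibody and 8.12, 7.93 and 7.55 with both. Pgk1, which makes the first ATP, was at 8.29, 8.48 and 8.10 in the Con tumors, 7.87, 7.99 and 8.27 with SFIH, 7.68, 7.81 and 7.83 with the antibody and 7.63, 7.36 and 7.26 with both. In both genes Con, PD and Comb were fully separated and stood in that order. In Comb vs Con the log2 fold change was -0.82 (SE 0.19) for Tpi1 and -0.88 (SE 0.18) for Pgk1, each with an adjusted p of 0.0665 in edgeR. DESeq2 gave Pgk1 an adjusted p of 4.4e-05.

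Gapdh, often used as a reference gene, was at 6.73, 6.86 and 6.60 in the Con tumors, 6.98, 6.87 and 6.88 with SFIH, 6.15, 6.31 and 6.40 with the antibody and 6.42, 6.31 and 6.03 with both. SFIH tumors were all above Con, and PD and Comb tumors were all below it. Its fitted log2 difference was 0.18 (SE 0.16) with SFIH, -0.45 (SE 0.16) with the antibody and -0.48 (SE 0.16) with both. Gapdh has many near-identical pseudogene copies, so its reads may have been split when they were counted. Pgam1, a mutase that moves the phosphate, was at 9.18, 9.45 and 8.89 in Con and at 8.64, 8.07 and 7.34 in Comb, a log2 fold change of -1.08 (SE 0.28). Pkm, the enzyme that yields pyruvate, was at -0.47 (SE 0.17), with no overlap.

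Enolase could not be read from the line named Eno1, which held 0 or 1 counts in every tumor. A pair of lines with the symbol Eno1b, a near-identical copy of Eno1, held between 1033 and 4012 counts each, and whether these include reads of Eno1 cannot be told from the table. On the line listed first, the counts were 2293, 2024 and 2130 in the Con tumors, 3893, 3236 and 2431 with SFIH, 1298, 1328 and 1401 with the antibody and 2063, 1291 and 1033 with both. Its log2 fold change was 0.39 (SE 0.20) with SFIH, -0.37 (SE 0.20) with the antibody and -0.33 (SE 0.20) with both against Con. Eno2, the neuronal form, had 4 to 37 counts per tumor and overlapped between Con and each treated group.

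Lactate is made by lactate dehydrogenase A (Ldha) and carried out of the cell by MCT4 (Slc16a3). Ldha was at 9.68, 10.02 and 9.71 in the Con tumors, 10.00, 9.97 and 10.13 with SFIH, 9.56, 9.66 and 9.58 with the antibody and 9.56, 9.59 and 9.49 with both. All PD and Comb tumors were just below the lowest Con tumor, and SFIH tumors lay high in the range of Con or above it. The fitted log2 difference was 0.23 (SE 0.16) with SFIH, -0.21 (SE 0.16) with the antibody and -0.26 (SE 0.16) with both. In Comb vs SFIH it was -0.49 (SE 0.16, adjusted p = 0.145 in edgeR and 0.0032 in DESeq2). Slc16a3 was at 8.83, 8.94 and 8.61 in Con and at 8.50, 7.78 and 6.87 in Comb, which did not overlap but differed widely within Comb. Its fitted log2 difference was -0.94 (SE 0.33). Pdk1, a kinase that inhibits pyruvate dehydrogenase in the mitochondria, was at 6.01, 5.72 and 5.70 in the Con tumors, 5.66, 5.34 and 5.63 with SFIH, 5.17, 5.34 and 5.39 with the antibody and 4.97, 4.70 and 4.67 with both. All treated tumors were below Con and all Comb tumors below PD. Its log2 fold change was -0.27 (SE 0.17) with SFIH, -0.52 (SE 0.17) with the antibody and -1.06 (SE 0.18, adjusted p = 0.0665 in edgeR) with both.

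**Figure D4:**
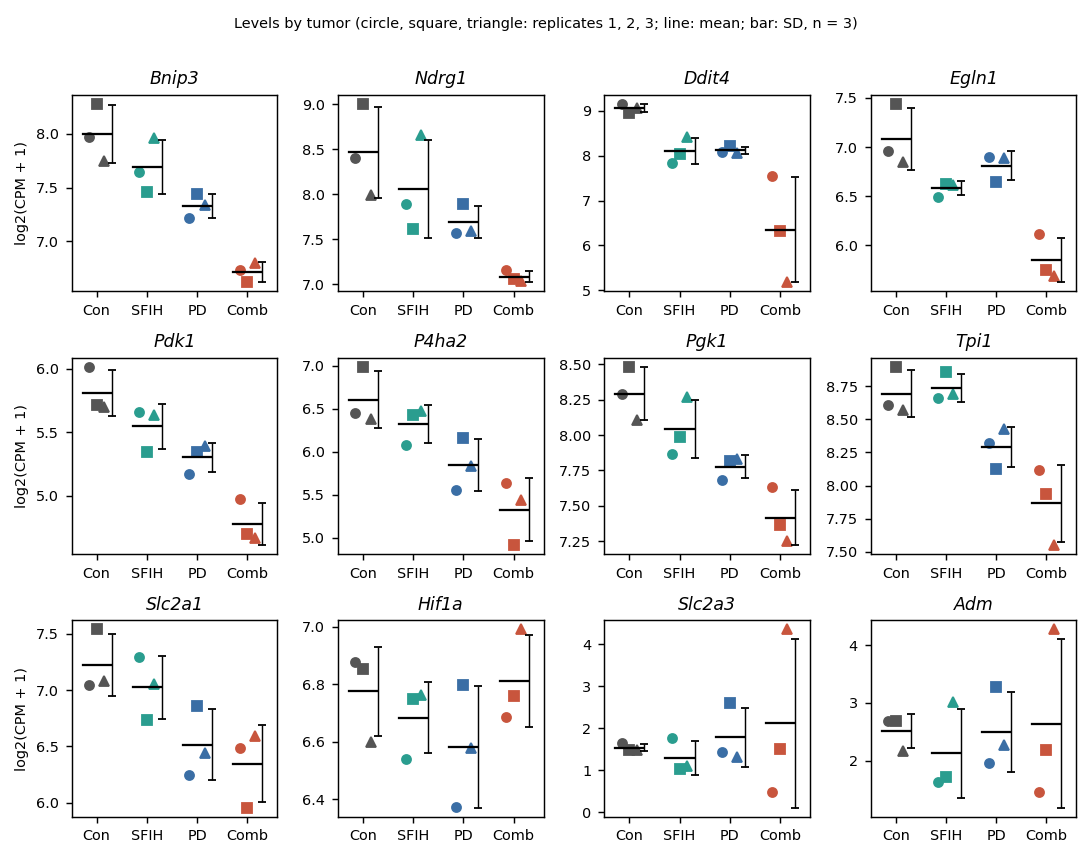
Levels in log2(CPM + 1) of 12 of the genes in every tumor, with circle, square and triangle for replicates 1, 2 and 3, a line at the mean and a bar of 1 SD (n = 3). Bnip3, Ndrg1, Ddit4, Pdk1, Pgk1 and Tpi1 show Comb below PD below Con without overlap, Hif1a overlaps, and the high Comb points of Slc2a3 and Adm are both replicate 3.

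Oxygen sensing is run by HIF-1α and the enzymes that use oxygen to act on it. The mRNA of Hif1a was at 6.88, 6.85 and 6.60 in the Con tumors, 6.54, 6.75 and 6.76 with SFIH, 6.37, 6.80 and 6.58 with the antibody and 6.69, 6.76 and 6.99 with both. The groups overlapped, and the log2 fold change in Comb vs Con was 0.04 (95% interval -0.30 to 0.38). HIF-1α is set mainly by the stability of its protein, which was not measured here. Egln1, the prolyl hydroxylase PHD2, was at 6.96, 7.44 and 6.85 in the Con tumors, 6.50, 6.63 and 6.62 with SFIH, 6.90, 6.64 and 6.89 with the antibody and 6.11, 5.75 and 5.69 with both. SFIH was below Con without overlap, PD overlapped Con, and every Comb tumor was below all others. By edgeR the log2 fold change was -0.53 (SE 0.19, unadjusted p = 0.0197 in edgeR) in SFIH, -0.29 (SE 0.19) in PD, -1.25 (SE 0.20, adjusted p = 0.0665) in Comb vs Con and -0.96 (SE 0.20, adjusted p = 0.243) in Comb vs PD. DESeq2 gave Egln1 an adjusted p of 4.1e-07 in Comb vs Con and 0.0027 in Comb vs PD.

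Egln3, the hydroxylase PHD3, was at 5.72, 5.10 and 5.02 in Con, 3.49, 5.15 and 3.40 in PD, and 4.42, 2.83 and 4.07 in Comb. The Comb tumors were below Con, whereas PD replicate 2 lay inside the Con range. The log2 fold change was -1.10 (SE 0.55) in PD vs Con and -1.45 (SE 0.55, adjusted p = 0.140 in edgeR) in Comb vs Con. Kdm3a, a histone demethylase that HIF-1 induces, was at -0.46 (SE 0.27) with SFIH, -0.35 (SE 0.27) with the antibody and -1.05 (SE 0.27) with both, with no overlap in SFIH and Comb.

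Collagen prolyl hydroxylases use oxygen to modify proline in collagen, and HIF-1 induces both α subunits listed. P4ha2 was at 6.45, 6.99 and 6.38 in the Con tumors, 6.07, 6.43 and 6.47 with SFIH, 5.55, 6.16 and 5.83 with the antibody and 5.63, 4.91 and 5.44 with both. PD and Comb were below Con and overlapped each other. The fitted log2 difference was -0.77 (SE 0.25) in PD and -1.29 (SE 0.26, adjusted p = 0.0665 in edgeR) in Comb. P4ha1 was at 6.24, 6.94 and 6.42 in Con and at 5.96, 5.86 and 5.89 in Comb, a log2 fold change of -0.66 (SE 0.21).

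Bnip3 and Bnip3l sit on the outer membrane of mitochondria and mark them for removal. Bnip3 was at 7.97, 8.28 and 7.74 in the Con tumors, 7.65, 7.46 and 7.96 with SFIH, 7.21, 7.44 and 7.34 with the antibody and 6.73, 6.62 and 6.80 with both. PD was below both Con and SFIH, and Comb was below PD, with a spread within Comb (SD 0.09) smaller than in Con (SD 0.27). By edgeR the log2 fold change was -0.31 (SE 0.19) with SFIH, -0.68 (SE 0.19) with the antibody and -1.30 (SE 0.19, adjusted p = 0.0665 in edgeR) with both. Without Comb replicate 3 the Comb value was -1.34 (adjusted p = 0.0470 in edgeR), and over all settings its adjusted p was between 5.8e-08 and 0.334. Bnip3l was at 7.04, 7.28 and 7.04 in Con, 6.43, 6.76 and 6.68 in PD, and 6.67, 6.67 and 7.59 in Comb. PD was below Con, and in Comb only replicate 3 was above it. Higd1a, a small mitochondrial protein induced by low oxygen, was at -0.27 (SE 0.17) in PD and -0.42 (SE 0.17) in Comb, both without overlap.

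Carbonic anhydrases IX and XII (Car9 and Car12) handle the acid that glycolytic cells export. Car9 was at 4.30, 5.73 and 5.51 in the Con tumors, 5.07, 4.65 and 5.39 with SFIH, 5.11, 5.12 and 4.74 with the antibody and 4.24, 4.16 and 2.16 with both. All Comb tumors were below all others, Comb replicates 1 and 2 by a small step from Con replicate 1 and Comb replicate 3 by a large one. The log2 fold change was -1.58 (SE 0.53, adjusted p = 0.103 in edgeR) in Comb vs Con and -1.27 (SE 0.53) in Comb vs PD. Car12 was near the detection limit, at 0.14 to 2.56, and overlapped in all comparisons.

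Among the other hypoxia genes, Ddit4 showed the largest difference of all 38 in Comb vs Con. Ddit4 (REDD1) restrains the growth kinase mTORC1 under low oxygen, energy shortage and glucocorticoids. It was at 9.15, 8.96 and 9.07 in the Con tumors, 7.84, 8.05 and 8.42 with SFIH, 8.09, 8.21 and 8.06 with the antibody and 7.54, 6.32 and 5.19 with both. The Con tumors were tightly grouped, SFIH and PD lay at similar levels below them, and Comb was lower still and widely spread. The fitted log2 difference was -0.94 (SE 0.44) in SFIH and -0.94 (SE 0.44) in PD, and it was -2.41 (SE 0.46, adjusted p = 0.0665 in edgeR) in Comb vs Con. Comb vs PD and Comb vs SFIH each gave -1.47 (SE 0.44, adjusted p = 0.243 and 0.134). In Comb vs Con, DESeq2 gave Ddit4 an adjusted p of 2.1e-05, and without Comb replicate 3 a log2 fold change of -2.00 with an adjusted p of 1.1e-08. Without that tumor DESeq2 also called Ddit4 lower in SFIH vs Con (adjusted p = 0.0412) and in PD vs Con (adjusted p = 0.0455).

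Ndrg1, a stress protein with a strong response to low oxygen, was at 8.40, 9.001 and 7.99 in the Con tumors, 7.89, 7.61 and 8.66 with SFIH, 7.57, 7.89 and 7.59 with the antibody and 7.16, 7.05 and 7.04 with both. PD was below Con and Comb below PD, and the Comb tumors were within an SD of 0.06. By edgeR the log2 fold change was -0.84 (SE 0.30) in PD and -1.45 (SE 0.30, adjusted p = 0.0665 in edgeR) in Comb. Ankrd37, a target of HIF-1, was at 4.79, 5.04 and 4.54 in Con and at 3.68, 3.82 and 4.13 in Comb, a log2 fold change of -0.96 (SE 0.24). Ero1l, which drives the folding of secreted proteins, was at 8.23, 9.09 and 7.71 in Con and at 6.86, 7.06 and 5.47 in Comb. Its fitted log2 difference was -1.86 (SE 0.50, adjusted p = 0.0688 in edgeR), with the lowest value again in Comb replicate 3.

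Adm, which encodes the vessel-widening peptide adrenomedullin, was at 2.69, 2.68 and 2.16 in the Con tumors, 1.64, 1.72 and 3.01 with SFIH, 1.957, 3.28 and 2.26 with the antibody and 1.46, 2.19 and 4.27 with both. Each treated group had 1 tumor above all Con tumors, and Comb replicate 3 was the highest of the 12. In Comb vs Con the log2 fold change was 0.72 (SE 0.80, adjusted p = 0.565 in edgeR) and -0.85 without that tumor. Mxi1, an antagonist of Myc, was lower than Con in all SFIH tumors (4.61, 4.11 and 4.78 against 4.81, 5.73 and 4.88), by -0.71 (SE 0.42) on the log2 scale, and overlapped in PD and Comb.

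The fitted differences above 0 in Comb vs Con of Slc2a3, Pfkm and Adm turned below 0 without Comb replicate 3, as given above. In that tumor, 16 of the 38 members were at their lowest of the 12 tumors, against 38.7% of all genes tested, and 7 were at their highest, against 34.0%. In Comb replicate 1, 5 members were lowest (4.28% of all genes), and in Comb replicate 2, 8 were (6.94%).

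The share of each form within an enzyme family does not depend on library size, and in 5 families it stood apart in Comb replicate 3. The muscle enolase Eno3 made up 2.35% ± 1.14 of enolase counts in Con and 13.1% ± 16.5 in Comb. In Comb it was 32.2% in replicate 3 and 3.59% on average without that tumor. Enolase counts here are those of Eno1, both Eno1b lines, Eno2 and Eno3. The Eno1b lines held similar counts, and the Eno3 share would be larger with only 1 of them included. The muscle mutase Pgam2 was at 0 counts in all Con tumors and made up 26.0% of mutase counts in Comb replicate 3 and 0.860% on average in the other Comb tumors. Pfkm made up 5.31% ± 0.319 of phosphofructokinase counts in Con and 10.4% ± 5.41 in Comb, with 16.5% in Comb replicate 3 and 7.32% on average without it. Hk3, a hexokinase of myeloid cells, made up 1.33% ± 0.745 of hexokinase counts in Con tumors, 2.24% ± 0.0925 with SFIH, 3.96% ± 2.30 with the antibody and 13.2% ± 11.5 with both, and 25.5% in Comb replicate 3. Without that tumor its Comb mean was 7.12%. Slc2a3 made up 1.29% ± 0.309 of the 2 glucose transporters in Con and 16.9% in Comb replicate 3, and the mean of the other Comb tumors was 1.68%. Aldoc differed by group in another way, at 3.69% ± 1.58 of aldolase counts in Con tumors, 4.90% ± 2.44 with SFIH, 0.724% ± 0.266 with the antibody and 1.36% ± 1.24 with both (n = 3 each). Comb replicate 1, at 2.77%, was within the Con range, and the Comb mean was 0.653% without it. The muscle and macrophage marker levels of Comb replicate 3, given above, stand beside these shares, and their part in them was not tested.

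**Figure D5:**
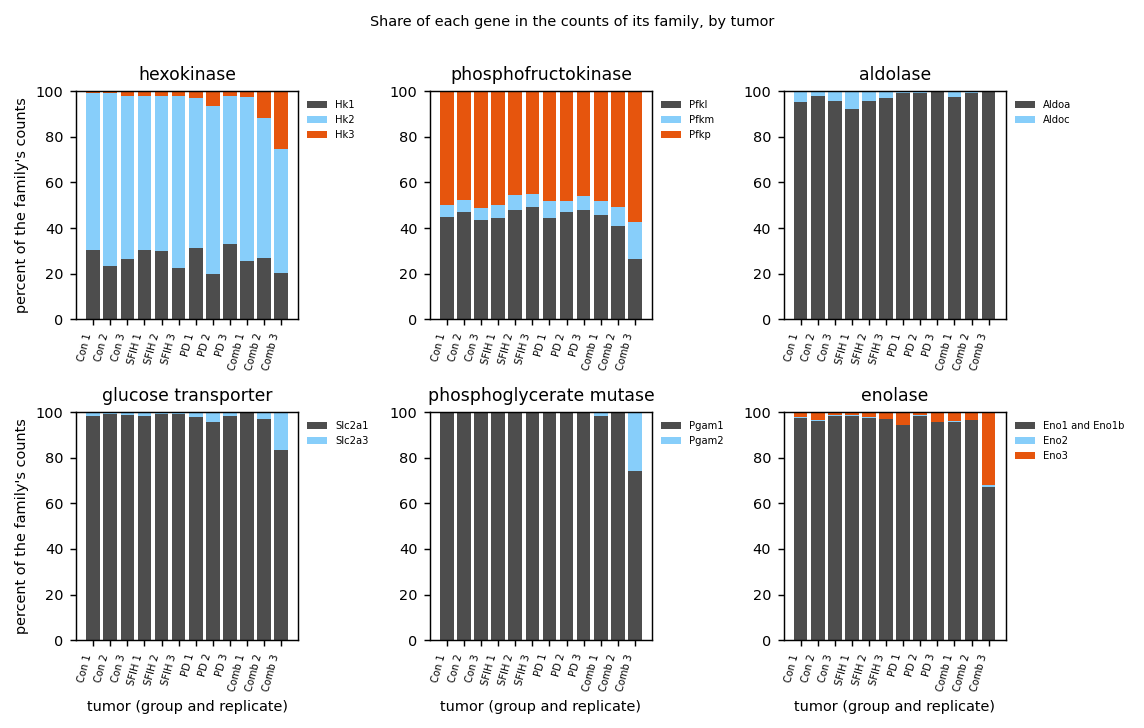
Percent of the counts of 6 enzyme or transporter families taken by each gene, 1 bar per tumor, each bar adding up to 100. In the enolase family, Eno1 and both Eno1b lines are summed. Hk1 spans 19.9% in PD replicate 2 to 32.8% in PD replicate 3, and Comb replicate 3 holds 32.2% Eno3, 26.0% Pgam2 and 25.5% Hk3.

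A further 60 genes of glycolysis, glycogen and the hypoxia response were read beside the 39, of which 51 were tested. In Comb vs Con, 32 of the 51 had a log2 fold change below 0 (52% of all genes), and the median was -0.26 against -0.03. An unadjusted p under 0.05 was reached on the lower side by 12 of the 51 (7.3% of all genes) and on the higher side by 10 (18%). In PD vs Con it was reached by 3 on the lower side (1.68%) and 0 on the higher side (2.31%), and in SFIH vs Con by 0 on either side (1.05% lower and 1.2% higher). Gbe1, the glycogen branching enzyme and a target of HIF-1, was at 5.89, 5.76 and 5.97 in the Con tumors, 5.56, 5.29 and 5.70 with SFIH, 5.46, 5.25 and 5.45 with the antibody and 5.06, 4.52 and 4.40 with both. As with Pgk1, Con, PD and Comb were separated in that order, with a log2 fold change of -1.22 (SE 0.21, adjusted p = 0.0665 in edgeR) in Comb vs Con. Vegfa, the vessel growth factor, was at 6.48, 6.39 and 6.22 in the Con tumors, 6.56, 6.05 and 6.16 with SFIH, 6.86, 6.45 and 6.36 with the antibody and 5.94, 5.61 and 4.80 with both. It was below all other tumors in Comb and not in PD, with a log2 fold change of -1.07 (SE 0.28, adjusted p = 0.243 in edgeR) in Comb vs PD.

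Other genes of the wider list differed in direction. Lox, an enzyme that cross-links collagen, was at 4.58, 4.79 and 3.92 in the Con tumors, 3.46, 4.76 and 5.73 with SFIH, 4.23, 6.57 and 5.68 with the antibody and 5.31, 6.78 and 8.72 with both. Every Comb tumor was above every Con tumor, and the log2 fold change was 3.16 (SE 0.90, adjusted p = 0.0747 in edgeR) and 1.80 (SE 0.70) without Comb replicate 3. Beside it, the fibroblast list was at 3014 to 24974 CPM in Comb and 2208 to 2727 CPM in Con, and its part was not tested. Tmem45a had the same direction, at 1.71, 2.11 and 2.01 in Con and 2.14, 2.65 and 6.12 in Comb (log2 fold change 3.16, SE 1.06), and its log2 fold change was 0.59 (SE 0.64) without Comb replicate 3. Among genes of the list with a mean of at least 50 counts, the widest differences in each direction in SFIH vs Con were -0.61 (SE 0.32) for Kdm4c, a histone demethylase, and 0.70 (SE 0.70) for Hk3. In PD vs Con, with the same limit, the 2 widest in each direction were -0.65 (SE 0.46) for Ldhb, the other lactate dehydrogenase, -0.64 (SE 0.47) for Stc2, a secreted stress protein, 1.36 (SE 0.70) for Hk3 and 1.35 (SE 0.85) for Lox, all with overlap between the tumors.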

How the data were processed

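RNA from 12 MC38 tumors was sequenced with QuantSeq 3′ libraries and single-end 75 bp reads. The authors deposited raw counts per gene symbol, 1 column per tumor, named by group and replicate. The aligner, counter, genome build and annotation are not given in the sources used here. The study's methods mention no molecular identifiers, so counting error is taken as a lower limit of the error.

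The members and lists were chosen with earlier results of these data known. Groups were compared in R 4.3.3 with edgeR 4.0.16 (filterByExpr, TMM, 1 fit of all 12 tumors with a coefficient per group, two-sided quasi-likelihood test, Benjamini-Hochberg adjustment over 13464 genes, threshold 0.05). SE is the fold change divided by the root of F. Levels are log2(CPM + 1). Members lower or higher in every tumor were counted beside the same count over all genes. Shares within families are of summed counts, which for enolase include both Eno1b lines. All 39 genes were named by rule, with the wider list's 2 largest differences per direction and comparison at a mean of at least 50 counts. Gapdh, Aldoa, Pgk1 and other glycolytic genes have pseudogene copies whose reads the counting could have split.

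Simulated counts had 200 of 13464 genes changed 4-fold. On them edgeR recovered 66.5% in PD vs Con (7 false calls) and 71% in Comb vs Con (6 false calls). DESeq2 recovered 74% (30) and 79% (31). The simulation gave every gene the same spread (dispersion 0.158) and held no tumor that stood apart, as Comb replicate 3 does. These rates therefore do not describe the real counts. Replicate numbers did not pair tumors. The alternatives were DESeq2 1.42.0, no TMM, upper-quartile normalization, other filters on low counts, a fit restricted to the groups compared, the replicate number as a block, other scales for levels, and leaving out each tumor. DESeq2 without Comb replicate 3 and the counts of non-overlapping genes without it were chosen after the data had been seen. Tables and figures used Python 3.11.15, pandas 2.3.3, numpy 2.4.6 and matplotlib 3.10.9. The values of 1 gene of the wider list are not reported here.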

Additional observations from a re-analysis of the deposited data

How the results depend on the processing

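No member passed edgeR's adjusted p of 0.05 with any normalization, filter or fit of the compared groups alone. DESeq2 called 23 members in Comb vs Con, 14 in Comb vs SFIH, 2 in Comb vs PD and 1 in PD vs Con. With DESeq2 and without Comb replicate 3 the counts were 18, 6, 1 and 3, and 1 in SFIH vs Con (Ddit4). Leaving out each tumor in turn, edgeR called between 0 and 22 members in Comb vs Con, 0 and 6 in Comb vs PD, and 0 and 15 in Comb vs SFIH, the highest without Comb replicate 1. The cause was not tested.

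The median log2 fold change of the members kept its sign throughout. Over the tumors left out it ranged from -0.45 to -0.22 in PD vs Con, -0.82 to -0.58 in Comb vs Con, -0.44 to -0.20 in Comb vs PD, and -0.27 to -0.075 in the interaction. Without TMM it was -0.94 in Comb vs Con, -0.47 in Comb vs PD, -0.86 in Comb vs SFIH and -0.36 in the interaction, where the median of all genes was itself at -0.29, -0.16, -0.31 and -0.20. On the scale without TMM, Comb minus Con was -1.55 for Bnip3 and -1.65 for Ndrg1.

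Some directions depended on a single tumor. With DESeq2 and without that tumor, Slc2a3 was at -0.76 in Comb vs Con, -1.29 in Comb vs PD, -0.46 in Comb vs SFIH and -0.98 in the interaction, Adm at -0.83, -0.50 (Comb vs SFIH) and -0.60 (interaction), and Pfkm at -0.12 in Comb vs Con. Leaving out each tumor in edgeR, Slc2a3 ranged from -0.79 to 2.48, -1.30 to 2.13, -0.48 to 2.79 and -0.997 to 2.44 in those comparisons and from -0.24 to 0.81 in PD vs Con. Adm ranged from -0.85 to 1.20, -0.52 to 1.80 and -0.61 to 1.71, and Pfkm from -0.14 to 0.82. Eno2 ranged from -0.28 to 0.58 and Aldoc from -0.22 to 0.57 in SFIH vs Con (Aldoc was below 0 without SFIH replicate 1 and without Con replicate 2), Car12 from -2.95 to 1.30 and Pfkfb4 from -0.11 to 0.34 in PD vs Con, and Car12 from -1.85 to 2.38 in the interaction.

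Same-numbered tumors of different groups correlated between -0.24 and 0.36 over 18 pairs, 6 of them over 0.1, so the numbers were not taken as pairs. With the replicate number as a block, edgeR called 0 members in each comparison, the medians were between -0.67 (Comb vs Con) and -0.19 (SFIH vs Con), and Car12 in PD vs Con turned to -0.031. With 3 tumors in a group, a permutation test of a single gene cannot go below 0.1. At this depth, mean counts per tumor were 13.3 for Car12, 13.9 for Eno2, 30.8 for Slc2a3 and 51.2 for Adm.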
